A study of Mus musculus with 20 samples.

Results

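Described here are 9 genes of the lipoproteins that liver secretes: Apoa1, Apoa2, Apoa4, Apoa5, Apoc1, Apoc3, Apoe and Apoh, which encode apolipoproteins, and Pltp, which encodes the phospholipid transfer protein. They were taken by Ensembl identifier, a rule that uses no measured value, though the members were chosen with earlier results of these data known. Of these, 9 of 9 were found among the 22361 rows of the data, 1 row a gene. Against saline, Pltp alone of the 9 passed the test's threshold with any of 4 antisense oligonucleotides: with SPC4061 it rose 1.54-fold (95% interval 1.20 to 1.98, 4 arrays a group). Of all rows, 11.5% passed in that comparison. The Pltp call held in 26 of 32 other settings, which include fits without an array of a group outside the comparison. It was lost after quantile normalization and on leaving out any 1 of 5 of the saline and SPC4061 arrays, which are 4 a group. Apoa4 and Apoa1 were also higher with SPC4061 than with SPC3833, given at a lower dose, where 16.9% of all rows passed. The Apoa4 call held in 29 of 32 other settings and the Apoa1 call in 32. Apoa2, which also encodes an HDL protein, leaned the other way by 0.09 on the log2 scale and did not pass (limma adjusted p = 0.292). The excess of Apoa4 with SPC4061 over SPC4955 lay at the threshold (limma adjusted p = 0.0499) and passed in only 10 of 32 other settings. Apoa2, Apoa5, Apoc1, Apoc3, Apoe and Apoh did not pass in any of the 10 comparisons between groups.

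An antisense oligonucleotide is a short synthetic strand that pairs with an RNA of matching sequence, and the study asked which genes change in liver after dosing. RNA came from the livers of female C57BL/6 mice (C57BL/6J in the growth protocol), 4 animals a group, on 20 1-colour Affymetrix arrays. The control group received saline and the treated groups SPC3833 at 5 mg/kg or SPC4061, SPC3847 or SPC4955 at 10 mg/kg, each into a vein on days 0, 1 and 2. Livers were collected on day 3 by the treatment protocol and 4 days after the opening dose by the source name; ages, oligonucleotide targets and chemistry are not given in the labels. No allele or transgene is named in any group.

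Lipoproteins carry triglyceride and cholesterol through blood. Apolipoproteins hold the particles together, switch the enzymes that unload triglyceride on or off, and bind the receptors that clear the remnants. Mouse liver makes all of the proteins named here. Apoa1 and Apoa2 encode the main proteins of HDL (high-density lipoprotein), Apoa4 encodes a protein of HDL and of particles rich in triglyceride, and the transfer protein moves phospholipid from such particles to HDL. Apoa1, Apoc3, Apoa4 and Apoa5 follow one another on chromosome 9 in the RefSeq annotation of GRCm38.p6, and Apoc1 lies next to Apoe on chromosome 7. Apoa2 is on chromosome 1, Apoh on chromosome 11 and Pltp on chromosome 2.

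The stretches before the starts of Apoa1, Apoa4 and Pltp are shown because these 3 genes passed the test in the same direction, higher with SPC4061 than with SPC3833. Each is 250 bases, read 5′ to 3′ in the direction of the gene and ending just before its start, from the RefSeq promoter table for GRCm38.p6, in which 7 of the 9 genes were found. The Apoa1 stretch is chr9:46228380-46228629 on the + strand, the Apoa4 stretch chr9:46240594-46240843 on the + strand and the Pltp stretch chr2:164857709-164857958 on the - strand. Capitals mark matches, on either strand, to spellings of the core motif that nuclear receptors bind in liver.
Apoa1: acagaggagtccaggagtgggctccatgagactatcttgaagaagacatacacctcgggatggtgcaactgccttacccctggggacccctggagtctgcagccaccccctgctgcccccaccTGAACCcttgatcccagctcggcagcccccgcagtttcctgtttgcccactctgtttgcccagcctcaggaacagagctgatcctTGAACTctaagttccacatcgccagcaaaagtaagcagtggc
Apoa4: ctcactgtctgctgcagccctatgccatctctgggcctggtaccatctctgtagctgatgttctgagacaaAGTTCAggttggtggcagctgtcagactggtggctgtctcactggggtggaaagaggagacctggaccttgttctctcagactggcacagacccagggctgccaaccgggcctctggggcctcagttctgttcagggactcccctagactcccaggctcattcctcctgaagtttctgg
Pltp: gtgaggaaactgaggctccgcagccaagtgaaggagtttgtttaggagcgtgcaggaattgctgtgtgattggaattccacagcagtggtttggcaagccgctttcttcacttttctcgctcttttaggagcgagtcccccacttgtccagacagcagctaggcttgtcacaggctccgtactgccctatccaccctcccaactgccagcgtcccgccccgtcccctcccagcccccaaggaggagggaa
The spelling AGGTCA was searched for and lay in none of the 3 stretches, against 14% of all 32851 stretches of this length in the table. The search was then widened to 4 spellings, adding AGTTCA and also GGGTCA and also GGTTCA, which 38.6% of all stretches hold. Apoa1 had 2 matches, at bases 127 to 122 and 42 to 37 before the start, both on the other strand. Apoa4 had 1, at bases 179 to 174 on the strand printed, and Pltp had none. The TATA box TATAAA (12.4% of all stretches) and the E-box CACGTG (6.02%) were found in none of the 3. A match is a string of letters and not a measured binding site.

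All values below are log2 intensities as deposited, so a difference of 1 is a factor of 2. A gene is called changed when its adjusted p in a linear model over all 20 arrays (limma, Benjamini-Hochberg over 22361 rows) is under 0.05. The arrays were alike in their centre, with medians of 6.37 to 6.53, and correlations between arrays of 1 group were 0.983 to 0.997. They differed in the width of their distributions, the quartile range, from 2.70 to 3.21. This width was 3.02 to 3.20 on the SPC4061 arrays and 2.87 to 2.97 on the SPC3833 arrays, which do not overlap, and 2.81 to 3.15 with saline. Values with the width of each array in the model are given for the called differences that rest on SPC4061. For SPC3833 against SPC4061 that fit rests on a slope shared by all groups. It cannot tell width and treatment apart where the widths do not overlap. In whole liver, a gene's lower level in each cell and a smaller number of cells that express it cannot be told apart. The liver label could be checked only on the 9 genes themselves: 8 of them lay above at least 97.4% of all rows by their mean over the arrays, and Pltp above 93.2%.

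**Figure D1:**
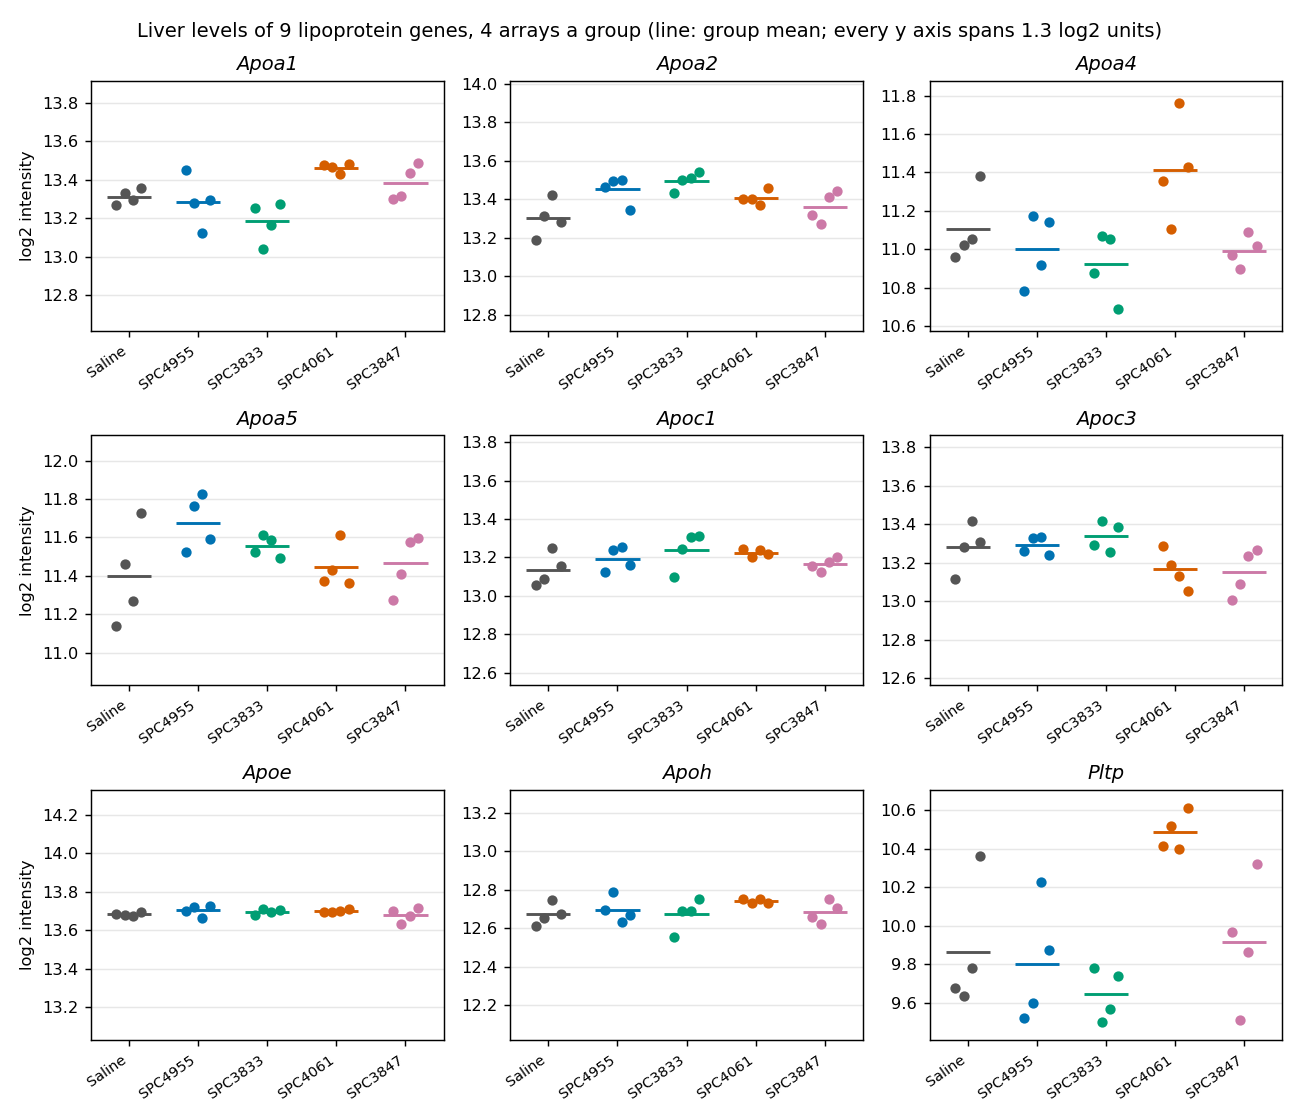
Log2 intensity of each of the 9 genes on each of the 20 arrays, by group, with a line at the group mean; every vertical axis spans the same number of log2 units. The 4 SPC4061 arrays lie at 10.40 to 10.61 for Pltp, above every array of the other groups, while the Apoe values of all groups fall on 1 level.

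Pltp (ENSMUSG00000017754) had the widest range of the 9 genes, 1.11 over the 20 arrays. With saline its level was 9.68, 9.64, 9.78 and 10.36 in replicates 1 to 4, and with SPC4061 it was 10.42, 10.52, 10.40 and 10.61. The groups did not overlap, with the highest saline array at 10.36 and the lowest SPC4061 array at 10.40. The means were 9.86 ± 0.34 and 10.49 ± 0.10 (SD, n = 4 each), a rise of 0.62 (SE 0.17, 95% interval 0.26 to 0.98), or 1.54-fold (1.20 to 1.98), with a limma adjusted p of 0.0231. With the width of each array in the model the rise was 0.73 (adjusted p = 0.0193), and after quantile normalization, which gives all arrays the same width, it was 0.57 and not called (adjusted p = 0.0565).

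That call was also lost on leaving out any 1 of 5 single arrays. Each such fit has fewer arrays in a group compared, and what part the array itself had was not tested. Without saline replicate 1 the rise of Pltp was 0.56 (limma adjusted p = 0.057), without saline replicate 2 it was 0.55 (0.0678), and without saline replicate 3 it was 0.60 (0.0641). Without SPC4061 replicate 2 it was 0.61 (0.0571), and without SPC4061 replicate 4 it was 0.58 (0.0723). In 26 of 32 other settings the rise was called, and its size over all of them was 0.55 to 0.79.

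With the other 3 oligonucleotides Pltp did not pass the threshold against saline. Its levels were 9.52, 9.60, 10.23 and 9.87 with SPC4955, 9.78, 9.50, 9.57 and 9.74 with SPC3833, and 9.97, 9.51, 9.86 and 10.32 with SPC3847. All 3 sets overlap saline: SPC4955 and SPC3833 each have 2 arrays below the lowest saline array and SPC3847 has 1, while SPC4955 and SPC3847 each hold 1 array above 10.2. The differences from saline were -0.06 (95% interval -0.42 to 0.30) with SPC4955, -0.22 (-0.58 to 0.14) with SPC3833 and 0.05 (-0.31 to 0.41) with SPC3847. The limma adjusted p values were 0.922, 0.539 and 0.946.

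Between oligonucleotides, Pltp was lower with SPC4955 than with SPC4061 at the same dose by 0.68 on the log2 scale, a factor of 1.61 (difference -0.68, 95% interval -1.04 to -0.32, limma adjusted p = 0.0149). No SPC4955 array reached the SPC4061 arrays, and with the width in the model the difference was -0.73 (adjusted p = 0.00845). Without SPC4955 replicate 1 the difference was -0.59 (adjusted p = 0.06) and without SPC4955 replicate 2 it was -0.61 (0.0568), so the call was lost without either array. Against SPC3847, also at 10 mg/kg, SPC4061 was higher by 0.57 (0.21 to 0.93), or 1.49-fold, with no overlap, and the limma adjusted p of 0.052 missed the threshold. Over 32 other settings that adjusted p ran from 0.0118 to 0.188 and was under the threshold in 12, the width in the model among them (0.68, 0.0406). SPC3833 was given at 5 mg/kg, so its comparisons also set 2 doses against each other. Pltp was 0.84 lower with SPC3833 than with SPC4061 (difference -0.84, -1.20 to -0.48), a factor of 1.79, with a limma adjusted p of 0.00263, and this call held in 32 of 32 other settings, the width in the model among them (-0.98, adjusted p = 0.00407).

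Pltp was the only gene of the 9 whose neighbouring groups, in order of their means, separated: SPC4061 lay above SPC3847 by 0.57 with no overlap, and SPC3847, saline, SPC4955 and SPC3833 followed with overlapping arrays. How many of all rows have neighbouring groups that separate was not counted, so this has no background to set it against. By likeness of pattern among the brighter rows, ENSMUSG00000032558 was nearest to Pltp, with a Pearson correlation of 0.895 and a Spearman correlation of 0.850 over the 20 arrays, which include the group differences. As that row was picked for this correlation, a like pattern of group means follows from the choice. Its group means were 7.48 with SPC4061, 7.14 with saline, 7.11 with SPC4955, 7.10 with SPC3847 and 6.97 with SPC3833. Around the group means the correlation was 0.730.

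**Figure D2:**
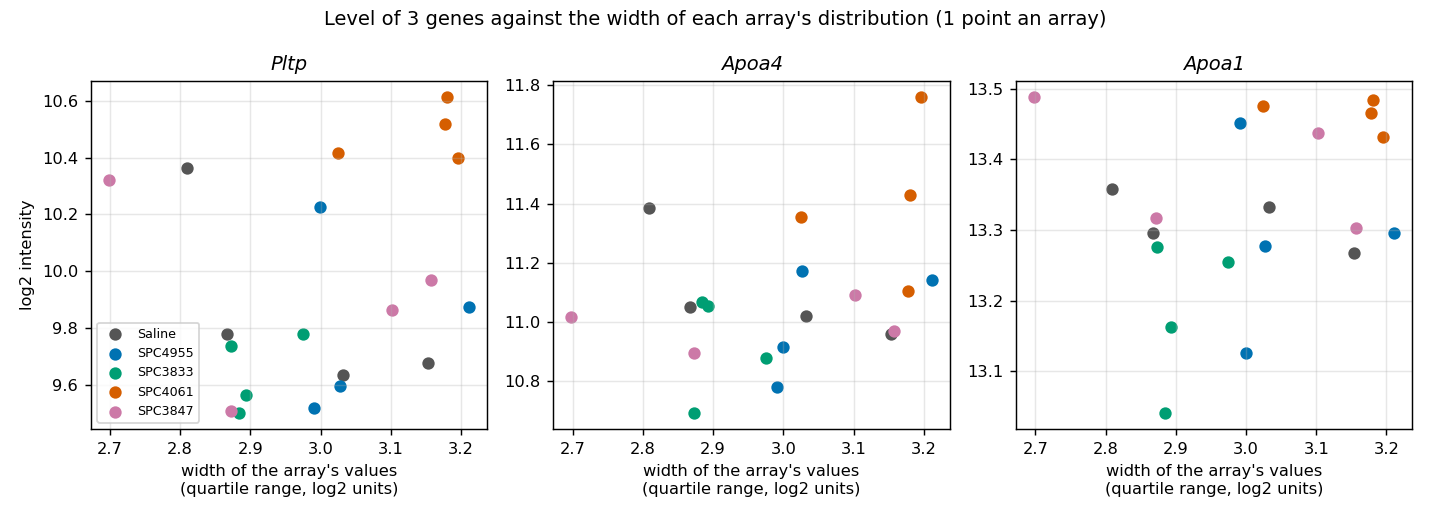
Log2 intensity of Pltp, Apoa4 and Apoa1 (vertical axes) against the quartile range of each array's values (horizontal axes, log2 units), 1 point an array, coloured by group. The SPC4061 arrays lie at widths of 3.02 to 3.20; the high Pltp arrays of saline and SPC3847, at 10.36 and 10.32, are on the narrowest arrays of those groups, with widths of 2.81 and 2.70.

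Apoa1 (ENSMUSG00000032083) encodes the core protein of HDL, on which the particle is built. Its level was 13.27, 13.33, 13.30 and 13.36 with saline and 13.48, 13.47, 13.43 and 13.48 with SPC4061. All 4 SPC4061 arrays were above all 4 saline arrays, and the means of 13.31 ± 0.04 and 13.46 ± 0.02 (SD, n = 4) differed by 0.15 (0.01 to 0.30), or 1.11-fold. The limma adjusted p of 0.183 did not pass, and it passed in 0 of 32 other settings.

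With SPC3833 the level of Apoa1 was 13.25, 13.04, 13.16 and 13.28, with SPC4955 13.45, 13.28, 13.13 and 13.30, and with SPC3847 13.30, 13.32, 13.44 and 13.49. The SPC3833 arrays were all below the SPC4061 arrays and below the SPC3847 arrays. Apoa1 was lower with SPC3833 than with SPC4061 by 0.28 (difference -0.28, 95% interval -0.43 to -0.14), a factor of 1.21, with a limma adjusted p of 0.0101. That call held in 32 of 32 other settings (adjusted p from 0.000523 to 0.0438), and with the width in the model the difference was -0.32 (0.0154). The difference between SPC3833 and SPC3847 was -0.20 (-0.35 to -0.06) with an adjusted p of 0.0953, which passed in 4 of 32 other settings (0.0413 to 0.292). At matched doses, SPC4955 against SPC4061 gave -0.18 (-0.32 to -0.03, limma adjusted p = 0.135, 0.036 to 0.381 in other settings), and the arrays overlapped.

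Apoa2 (ENSMUSG00000005681) encodes the other major HDL protein, which sits on the surface beside the Apoa1 product. With saline it measured 13.19, 13.31, 13.42 and 13.28, and with SPC3833 13.43, 13.50, 13.51 and 13.54. Every SPC3833 array was above every saline array, the nearest pair being 13.43 and 13.42. The difference was 0.20 (0.07 to 0.32), or 1.15-fold, and the limma adjusted p of 0.0547 missed the threshold. It was under the threshold in 10 of 32 other settings, in a range of 0.00943 to 0.188. Saline had the lowest mean of the 5 groups, 13.30 ± 0.10, against 13.50 ± 0.05 with SPC3833, 13.45 ± 0.07 with SPC4955, 13.41 ± 0.04 with SPC4061 and 13.36 ± 0.08 with SPC3847. The differences from saline with the last 3 were 0.15 (adjusted p = 0.166), 0.11 (0.279) and 0.06 (0.749), by limma, and their arrays overlapped the saline arrays.

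Apoa4 (ENSMUSG00000032080) was the other gene with a wide range, 1.07 over the 20 arrays. Saline arrays measured 10.96, 11.02, 11.05 and 11.38, and SPC4061 arrays 11.35, 11.11, 11.76 and 11.43. Saline replicate 4 lay above SPC4061 replicates 1 and 2, so the groups overlapped, and the other 2 SPC4061 arrays lay above all saline arrays. The difference from saline was 0.31 (0.04 to 0.57), or 1.24-fold, and did not pass (limma adjusted p = 0.13, 0.0515 to 0.378 in other settings). With the other oligonucleotides the differences from saline were -0.10 with SPC4955, -0.18 with SPC3833 and -0.11 with SPC3847, with limma adjusted p values of 0.782, 0.474 and 0.794.

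Against the other oligonucleotides Apoa4 separated further from SPC4061. Its level was 10.78, 11.17, 10.92 and 11.14 with SPC4955, 10.88, 11.07, 11.05 and 10.69 with SPC3833, and 10.97, 10.90, 11.09 and 11.02 with SPC3847. The SPC3833 and SPC3847 arrays all lay below the lowest SPC4061 array, at 11.11, and the SPC4955 arrays did not. Apoa4 was lower with SPC4955 than with SPC4061 at the same dose by 0.41 (difference -0.41, -0.67 to -0.14), a factor of 1.33, with a limma adjusted p of 0.0499 that lay at the threshold and passed in only 10 of 32 other settings (0.0175 to 0.188). It was lost on leaving out any of 14 of the 20 arrays, with the widest move without SPC4061 replicate 3, the array at 11.76, where the difference was -0.29 (0.188). With the width in the model it was -0.41 and not called (0.0508). SPC4061 exceeded SPC3847 by 0.42 (0.15 to 0.68), or 1.34-fold, at an adjusted p of 0.0528, which passed in 9 of 32 other settings (0.0218 to 0.172), though not with the width in the model (0.103).

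At the lower dose of SPC3833, Apoa4 was 0.49 below SPC4061 (difference -0.49, -0.76 to -0.23), a factor of 1.40, with a limma adjusted p of 0.0132. This call was lost in 3 of 32 other settings: without SPC3833 replicate 4 (-0.41, adjusted p = 0.0532), without SPC4061 replicate 3 (-0.37, 0.0539) and with the width in the model (-0.50, 0.0513). The part of the width in the differences of the SPC4061 arrays was not tested further. The brighter row most like Apoa4 was ENSMUSG00000038780, with a Pearson correlation of 0.777 and a Spearman correlation of 0.779 over 20 arrays and 0.582 around the group means. That row, also picked for its correlation, averaged 8.25 with SPC4061 and 7.87 to 8.02 in the other groups.

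**Figure D3:**
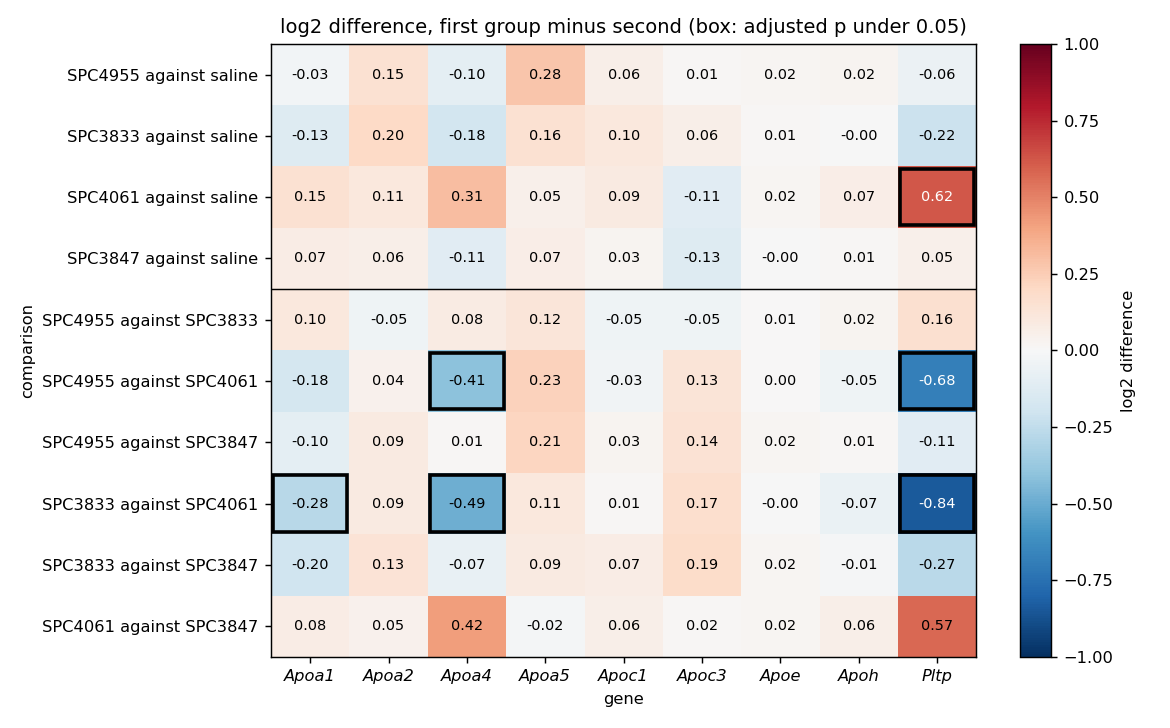
Log2 difference of each gene (columns) in each of the 10 comparisons (rows), the first group minus the second, with boxes where the adjusted p was under 0.05. The 6 boxed cells all involve SPC4061 and lie in the columns of Pltp, Apoa4 and Apoa1.

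Apoa5, Apoc3 and Apoc1 act on how fast triglyceride leaves the particles. Apoa5 (ENSMUSG00000032079) encodes a protein that helps lipoprotein lipase break triglyceride down, and loss of it raises blood triglyceride. Its level was 11.14, 11.46, 11.27 and 11.72 with saline and 11.52, 11.77, 11.82 and 11.59 with SPC4955. The SPC4955 arrays overlapped only the highest saline array and lay above the others. The difference was 0.28 (0.06 to 0.50), or 1.21-fold, and did not pass (limma adjusted p = 0.146). Without saline replicate 4 it was 0.39 and passed (adjusted p = 0.0274), the only setting of 32 in which it did, in a range of 0.0274 to 0.331. Saline again had the lowest mean, 11.40 ± 0.26, and the other oligonucleotides gave means of 11.55 ± 0.05 with SPC3833, 11.46 ± 0.15 with SPC3847 and 11.45 ± 0.12 with SPC4061, all within the saline range.

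Apoc3 (ENSMUSG00000032081) encodes an inhibitor of lipoprotein lipase that also slows the uptake of remnants. Its level was 13.11, 13.28, 13.42 and 13.31 with saline, 13.29, 13.19, 13.13 and 13.05 with SPC4061 and 13.01, 13.09, 13.24 and 13.26 with SPC3847. These ranges overlap throughout. The differences from saline were -0.11 (-0.27 to 0.04) and -0.13 (-0.28 to 0.03), with limma adjusted p values of 0.357 and 0.473, and with SPC4955 and SPC3833 they were 0.01 and 0.06. SPC3833 against SPC4061 gave 0.17 (0.02 to 0.33), in the opposite direction to Apoa1, Apoa4 and Pltp in that comparison, and did not pass (adjusted p = 0.111). It passed in 2 of 32 other settings, quantile normalization (adjusted p = 0.0459) and array weights (0.018), in a range of 0.018 to 0.716.

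Apoc1 (ENSMUSG00000040564) encodes a small surface protein that hinders the binding of particles to their receptors. Its group means lay between 13.14 ± 0.08 with saline and 13.24 ± 0.10 with SPC3833, and the differences from saline ran from 0.03 to 0.10 with limma adjusted p values of 0.359 to 0.901. All treated groups overlapped saline.

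Apoe (ENSMUSG00000002985) encodes the ligand by which LDL receptors and related receptors take up remnants. Over the 20 arrays it varied by 0.096, a factor of 1.07, from 13.63 to 13.73, and its SD within groups was 0.0226 against a median of 0.137 over all rows. Its differences from saline were 0.02 with SPC4061, -0.00 with SPC3847, 0.02 with SPC4955 and 0.01 with SPC3833, and the interval that reached farthest from 0 was -0.07 to 0.11. Apoe lay 0.02 to 0.19 below the highest value of its array, and 52 rows in all had a mean of 13 or higher. Whether probes near this top had saturated was not analysed here, so a small spread there does not show a steady RNA level. The same holds for Apoa1, Apoa2, Apoc1 and Apoc3, at most 0.78 below the highest value of their array.

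Apoh (ENSMUSG00000000049) encodes beta-2-glycoprotein I, which binds negatively charged phospholipid and circulates partly on lipoproteins. Its level ranged over 0.23 on the 20 arrays, and its group means were 12.74 ± 0.01 with SPC4061, 12.70 ± 0.07 with SPC4955, 12.68 ± 0.06 with SPC3847, 12.67 ± 0.06 with saline and 12.67 ± 0.08 with SPC3833. The SPC4061 arrays, at 12.73 to 12.75, sat at the top of the saline range of 12.61 to 12.75. The difference of 0.07 (-0.05 to 0.19) did not pass (limma adjusted p = 0.458).

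**Figure D4:**
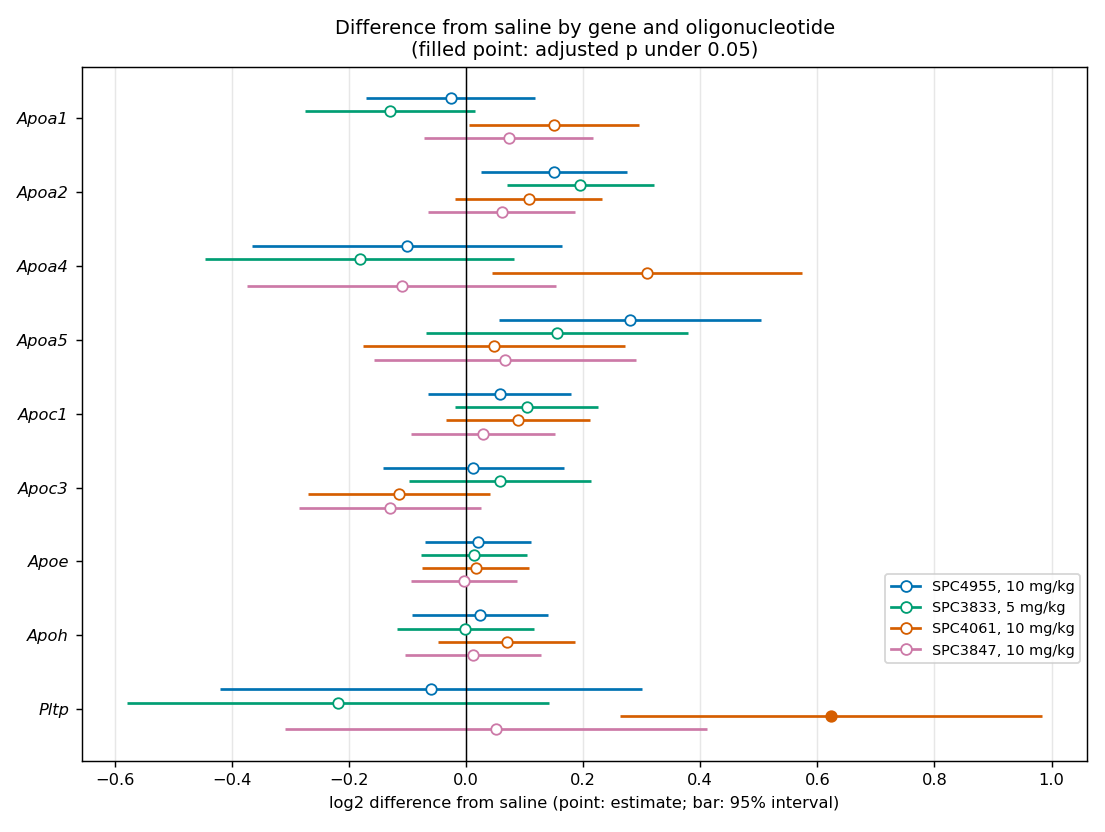
Log2 difference from saline for each of the 9 genes and 4 oligonucleotides (point: estimate; bar: 95% interval; filled: adjusted p under 0.05). The single filled point is Pltp with SPC4061 at 0.62, and all other points lie between -0.22 and 0.31.

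Counts of the 9 genes called in each comparison are set beside the share of all rows called, dim rows included. Whether the 9 genes differ from the array as a whole was not tested. With SPC4061 against saline 1 of 9 was called, while 11.5% of all rows were. With SPC4955, SPC3833 and SPC3847, 0 of 9 were called by limma, beside 6.59%, 7.06% and 3.33% of all rows. At unadjusted limma p under 0.05 the counts were 2, 1 and 0 of 9, and 3 of 9 with SPC4061. The share of all rows at that unadjusted threshold was not counted. No gene of the 9 reached a 2-fold difference from saline in any group, and the 95% intervals reached at most 1.98-fold with SPC4061, 1.33-fold with SPC3847, 1.42-fold with SPC4955 and 1.49-fold with SPC3833. The 4 comparisons share the saline arrays.

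The median difference of the 9 genes from saline was 0.09 with SPC4061, 0.03 with SPC3847, 0.02 with SPC4955 and 0.01 with SPC3833, where the medians of all rows were -0.02, 0.02, 0.01 and 0.05. With SPC4061, 8 of 9 differences were above 0, against 46.6% of all rows. Bright rows as a set sat higher there too, since the rows at or above the median of row means had a median difference of 0.075 with SPC4061. With SPC4955, SPC3833 and SPC3847 the median difference of these bright rows was 0.059, 0.034 and 0.017. The other counts above 0 were 6, 5 and 6 of 9 with SPC4955, SPC3833 and SPC3847, against 53.2%, 64.7% and 58.4% of all rows.

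Between oligonucleotides at 10 mg/kg, 2 of 9 genes were lower with SPC4955 than with SPC4061 (8.75% of all rows called), 0 of 9 differed between SPC4955 and SPC3847 (7.55%) and 0 of 9 between SPC4061 and SPC3847 (6.74%). At unadjusted limma p under 0.05 these comparisons held, in that order, 4, 0 and 2 genes, with the share of all rows not counted. Where the dose differed, 3 of 9 were lower with SPC3833 than with SPC4061 (16.9% of all rows called), 0 of 9 differed between SPC4955 and SPC3833 (5.82%) and 0 of 9 between SPC3833 and SPC3847 (6.36%). In the same order these held 4, 0 and 3 genes at unadjusted limma p under 0.05, again with the share of all rows not counted. Over the 5 groups together the limma F-test called Apoa1 (adjusted p = 0.0395), Apoa4 (0.0394) and Pltp (0.0101), 3 of 9, beside 23.8% of all rows. In 31 other settings the F-test called Pltp in 31, Apoa4 in 20 and Apoa1 in 19. Apoa4 was lost and Apoa2 called after quantile normalization, with the ordinary statistic and with the width in the model. Pltp alone remained called without saline replicate 3 or without SPC4061 replicate 1, 3 or 4. Apoa1 was also lost without saline replicate 2, SPC4955 replicate 2 or 4, SPC3833 replicate 2 or 3, SPC4061 replicate 2 or SPC3847 replicate 3, and Apoa4 without SPC4955 replicate 3, SPC3833 replicate 1 or 4 or SPC3847 replicate 2. The reported F-test adjusted p values of the other genes were 0.107 for Apoa2, 0.184 for Apoc3, 0.24 for Apoa5, 0.534 for Apoc1, 0.775 for Apoh and 0.98 for Apoe.

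**Figure D5:**
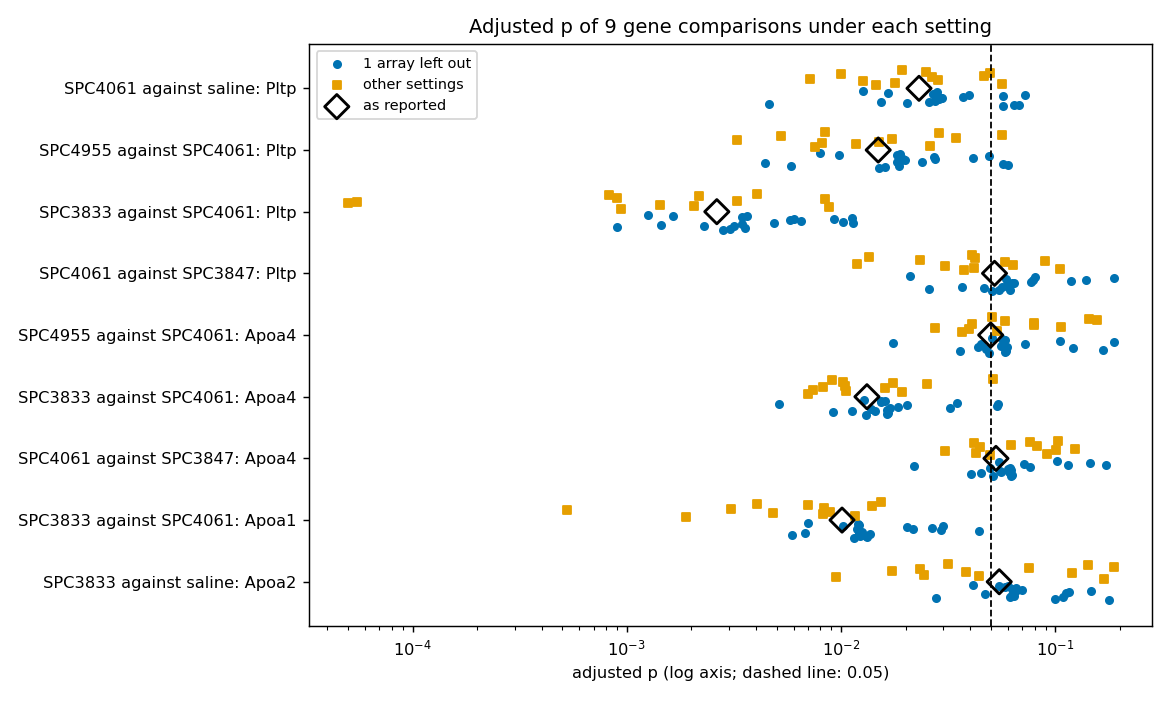
Adjusted p (log axis, dashed line at 0.05) of 9 gene comparisons in the fit as reported (diamonds), with 1 array left out (circles) and under other settings (squares). Pltp and Apoa1 for SPC3833 against SPC4061 stay left of the line throughout, and the other 7 cross it.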

How the data were processed

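Liver RNA of 20 mice was measured with 1 array each. The deposited values are log2 intensities, already summarised by the authors to 1 value a gene and array, as the values show; the affy package was used per the submitters' processing notes, and how background was corrected, arrays were normalized and probes were assigned is not given in the sources used here. The members and lists were chosen with earlier results of these data known. A mean per group was fitted to all 22361 rows in R 4.3.3 by lmFit, contrasts.fit and eBayes of limma 3.58.1 (15 residual degrees of freedom), with Benjamini-Hochberg adjustment over all rows, no filter and no further normalization, and a call at adjusted p under 0.05. The fit was tested on simulated data. All members are named, whatever they show; likeness was ranked among rows at or above the median of row means. Of the identifiers, 0 matched the gene table, so the lipoprotein pathway lists and cell type markers, with Apob and Mttp, were not analysed here. The labels call the 4 mice of a group biological replicates, and the number of arrays limits the precision. Alternatives were quantile normalization, median centring, removal of dim rows, fits of only the groups compared, array weights, other priors, the ordinary statistic, the replicate block, the array width as a covariate and leaving out arrays. Leaving out an array of a group outside a comparison cannot change its difference, only the shared spread and the adjustment. Counts over 32 other settings include such fits and leave out the stricter threshold of 0.01.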

Additional observations from a re-analysis of the deposited data

How the results depend on the processing

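Counts of the 9 genes called moved with the processing as follows. SPC3833 against saline (0 as reported) gave 1, Apoa2, after quantile normalization, under either filter on dim rows, with a trended robust prior, array weights, the ordinary statistic or the width covariate. SPC4955 against saline (0) gave 1, Apoa2, after quantile normalization and with the width covariate. SPC4061 against saline (1) gave 0 after quantile normalization. SPC4061 against SPC3847 (0) gave 2 after median centring, under either filter, and without saline replicate 1 and SPC4955 replicate 1 together, and 1 with array weights, the trended prior, the width covariate, the replicate block, or with SPC3847 replicate 4 left out as well. SPC4955 against SPC4061 (2) gave 1 after quantile normalization, in a fit of only its own arrays, with the ordinary statistic, the width covariate or the replicate block (Apoa4 then 0.0579), and 0 with those 2 arrays left out together. With SPC3847 replicate 4 left out as well it gave 2, Apoa1 and Pltp. SPC3833 against SPC4061 (3) gave 4 after quantile normalization and with array weights (Apoc3 added), and 2 with the width covariate (Apoa4 lost). SPC3833 against SPC3847 (0) gave 1, Apoa1, after quantile normalization, above the median filter, with array weights and with the trended prior. The F-test (3) gave 5 with array weights (Apoa2 and Apoc3 added) and 4 with the trended prior (Apoa2 added). With array weights SPC4955 against SPC4061 called Apoa1, Apoa5 and Pltp but not Apoa4. At adjusted p under 0.01 SPC4061 against saline gave 0, SPC4955 against SPC4061 0, SPC3833 against SPC4061 1 and the F-test 0. The block also took the F-test from 3 to 2, losing Apoa1, and changed no other count; the labels' replicate numbers did not pair the samples: deviations from group means of the 40 same-number pairs correlated at -0.496 to 0.517, with 9 of 40 over 0.1. Leaving out each array gave 0 to 1 for each of SPC4955, SPC3833 and SPC4061 against saline, 0 to 0 for SPC3847, 0 to 2 for SPC4061 against SPC4955 or SPC3847, 2 to 3 for SPC3833 against SPC4061, 1 to 3 for the F-test and 0 to 0 for the rest. No called difference changed sign, no scaling moved the median of all rows by over 0.1, and the causes of these moves were not tested. Signal over background was not analysed here.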

Other observations

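Differences within an array between the chromosome 9 genes are given as a description, chosen after their values were seen and not tested. How often other pairs of rows fail to overlap saline was not counted, so overlap here has no background to set it against. Apoa1 and Apoc3 also lie near the top of the range, where saturation was not analysed. On each array the log2 value of Apoa1 minus that of its neighbour Apoc3 was 0.19 to 0.43 with SPC4061 and 0.20 to 0.29 with SPC3847, against -0.12 to 0.15 with saline, so neither treated group overlapped saline. With SPC3833 the difference was -0.38 to -0.04 and with SPC4955 -0.21 to 0.19, both overlapping saline. Apoa4 minus its neighbour Apoa5 was -0.91 to -0.45 with SPC4955 and -0.80 to -0.53 with SPC3833, both below the saline range of -0.44 to -0.18, and it overlapped saline with SPC4061 (-0.33 to 0.15) and SPC3847 (-0.58 to -0.31). Apoa1 minus Apoa4 was 2.33 to 2.47 with SPC3847 and 1.97 to 2.31 with saline, and the other 3 treated groups overlapped saline. The other 3 pairs of the chromosome 9 genes, Apoc3 minus Apoa4, Apoc3 minus Apoa5 and Apoa1 minus Apoa5, overlapped saline in all 4 treated groups. For Apoc1 minus Apoe, the neighbours on chromosome 7, all 4 treated groups overlapped saline. A difference between probes on 1 array does not show which RNA is more abundant, and whether the RNAs changed unequally between groups was not tested.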
